A study of Arabidopsis thaliana with 32 samples.

Results

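The genes described here are the serine acetyltransferases (SERAT1;1, SERAT2;1, SERAT2;2, SERAT3;1 and SERAT3;2) and the O-acetylserine thiol-lyases with their close relatives (OASA1, OASB, OASC, CYSC1 and DES1) of Arabidopsis thaliana. They were taken by gene identifier and are 10 of the 37336 genes in the count files. Their transcript levels were followed by 3′RNA-seq, which counts 1 end of each transcript, in 32 libraries. The libraries came from shoots and roots of 15-day-old seedlings in the Col-0 background. The q-lsu-KO line carries deletions in all 4 LSU (RESPONSE TO LOW SULFUR) genes, and Col-0 was the wild type (WT). Sulfur-deficient medium, [dS], had MgCl2 in place of MgSO4, and the normal sulfur medium, [nS], held 1 mM sulfate. All seedlings spent 10 days on [nS] and 5 more days on [dS] or [nS]. Each sample pooled at least 10 seedlings, and the knockout was represented by 1 line. The 8 groups of 4 libraries were q-lsu-KO [dS], WT [dS], q-lsu-KO [nS] and WT [nS], in shoots and in roots.

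Serine acetyltransferase moves an acetyl group from acetyl-CoA to serine, and the product is O-acetylserine (OAS). O-acetylserine thiol-lyase then exchanges the acetyl group for sulfide, which gives cysteine, the first organic compound with reduced sulfur. The enzymes bind each other in the cysteine synthase complex, in which the acetyltransferase is active, and OAS that is not used takes the complex apart. SERAT1;1, SERAT3;1, SERAT3;2 and OASA1 are cytosolic, SERAT2;1 and OASB work in plastids, and SERAT2;2, OASC and CYSC1 in mitochondria. CYSC1 is a β-cyanoalanine synthase that consumes cyanide and cysteine, and DES1 is a cytosolic desulfhydrase that releases sulfide from cysteine.

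By TAIR10.1, in which the nuclear chromosomes have the same sequence as in TAIR10, SERAT1;1 (AT5G56760) lies on chromosome 5 (22961229 to 22962713, minus strand) and SERAT2;1 (AT1G55920) on chromosome 1 (20912116 to 20913565, plus strand). SERAT2;2 (AT3G13110) lies on chromosome 3 (4214399 to 4216302, minus strand). SERAT3;1 (AT2G17640) lies on chromosome 2 (7668078 to 7670495, minus strand) and SERAT3;2 (AT4G35640) on chromosome 4 (16905579 to 16908357, minus strand). OASA1 (AT4G14880) lies on chromosome 4 (8517960 to 8520596, minus strand), OASB (AT2G43750) on chromosome 2 (18129435 to 18132638, minus strand) and OASC (AT3G59760) on chromosome 3 (22071948 to 22075453, minus strand). CYSC1 (AT3G61440) lies on chromosome 3 (22735663 to 22738131, plus strand) and DES1 (AT5G28030) on chromosome 5 (10029632 to 10032962, minus strand).

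SERAT3;1 and SERAT3;2 each end beside an aminotransferase gene of serine synthesis on the opposite strand. The annotated 3′ end of SERAT3;2 overlaps that of PSAT1 (AT4G35630), phosphoserine aminotransferase, by 144 bases, and 12 bases separate SERAT3;1 from AT2G17630, annotated with the same activity. Reads of such a pair can be told apart only where the counting used strand, and whether it did is not given in the sources used here. The relative CYSD2 (AT5G28020) lies 909 bases beyond the 3′ end of DES1 on the same strand. The 3′ end of SERAT2;2 overlaps ABCC7 (AT3G13100) by 132 bases on the same strand, where strand does not separate reads. ABCC7 had 567 counts over all libraries. The 3′ end of OASB likewise overlaps AT2G43745 on the same strand, and AT2G43745 had 17 counts over all libraries.

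The 250 intergenic bases before the annotated start of SERAT3;1, which was called under [dS] in roots, are shown with the core of the sulfur-responsive element, GAGAC, in capitals. The sequence, from the RefSeq copy of TAIR10.1, reads 5′ to 3′ on the gene's own strand.
SERAT3;1, chr2:7670496-7670745, minus strand: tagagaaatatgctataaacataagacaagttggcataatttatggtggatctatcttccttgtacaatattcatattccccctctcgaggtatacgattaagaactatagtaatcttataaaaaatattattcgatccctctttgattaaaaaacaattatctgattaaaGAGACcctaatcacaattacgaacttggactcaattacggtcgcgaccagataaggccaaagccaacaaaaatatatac
GAGAC occurred once, beginning 79 bases before the gene's start, and its reverse complement GTCTC did not occur. On either strand the motif was found in 25.75% of 27443 protein-coding genes in windows of 250 bases. A match is only a match of letters. The upstream bases of SERAT3;2 and OASB, also called under [dS], are not shown. The next annotated gene upstream lies 139 bases from SERAT3;2, and the 5′ end of OASB overlaps a gene.

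Library totals ranged from 893225 to 2857129 counts. The sum of 6 photosynthesis genes ran from 48492 to 54251 CPM (counts scaled to library size) in [dS] shoots, from 61871 to 68155 in [nS] shoots and from 86.7 to 308 in roots, and that of 7 root genes from 6.19 to 19.8 in shoots and from 383 to 560 in roots, with the root hair gene EXPA7 at 0 in every shoot library. Of the 6 photosynthesis genes, 2 were called lower in shoots under [dS] in each genotype, beside 12.1% of all genes called in q-lsu-KO and 11.4% in WT. The part of the photosynthesis genes in the sulfur results was not tested. LSU2 averaged 3.45 ± 0.302 CPM in q-lsu-KO shoots and 170 ± 37.8 CPM in WT shoots under [nS] (SD, n = 4 each). Tags of LSU1, LSU3 and LSU4 were still counted in the mutant and, in [nS] shoots, were called higher than in WT. Their log2 fold changes there were 2.75 ± 0.21, 2.28 ± 0.23 and 2.56 ± 0.33 (± SE). The labels do not say whether replicates came from separate plates, and the p-values cover only the spread among them, which may be technical. Each sequencing pool held 1 tissue under 1 sulfur condition. The effects of sulfur or of tissue and those of the pool therefore cannot be told apart, whereas genotypes were compared within a pool. In pooled tissue, fewer cells of a type and less RNA per cell cannot be told apart.

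Across the 10 genes, SERAT3;2 rose under [dS] in both organs and both genotypes, SERAT3;1 rose in roots and OASB rose in shoots. A gene was called at an adjusted p under 0.05 (edgeR's quasi-likelihood test, Benjamini-Hochberg over all genes tested) and a fold change over 1.5. Under [dS], 2 of the 10 genes were called in q-lsu-KO shoots and 2 in WT shoots, beside 12.1% and 11.4% of the 14593 genes tested. In roots 9 of the 10 genes passed the low-count filter, DES1 being left out, and 2 were called in q-lsu-KO and 2 in WT, beside 6.15% and 6.82% of 15971 genes. All these calls were rises. The median log2 change of the genes tested was 0.00 in q-lsu-KO shoots and -0.12 in WT shoots, and -0.11 and -0.05 in q-lsu-KO and WT roots, with that of all genes between 0.00 and 0.02. The other genes tested moved by less than 1.5-fold under [dS] (plot of fold changes).

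**Figure D1:**
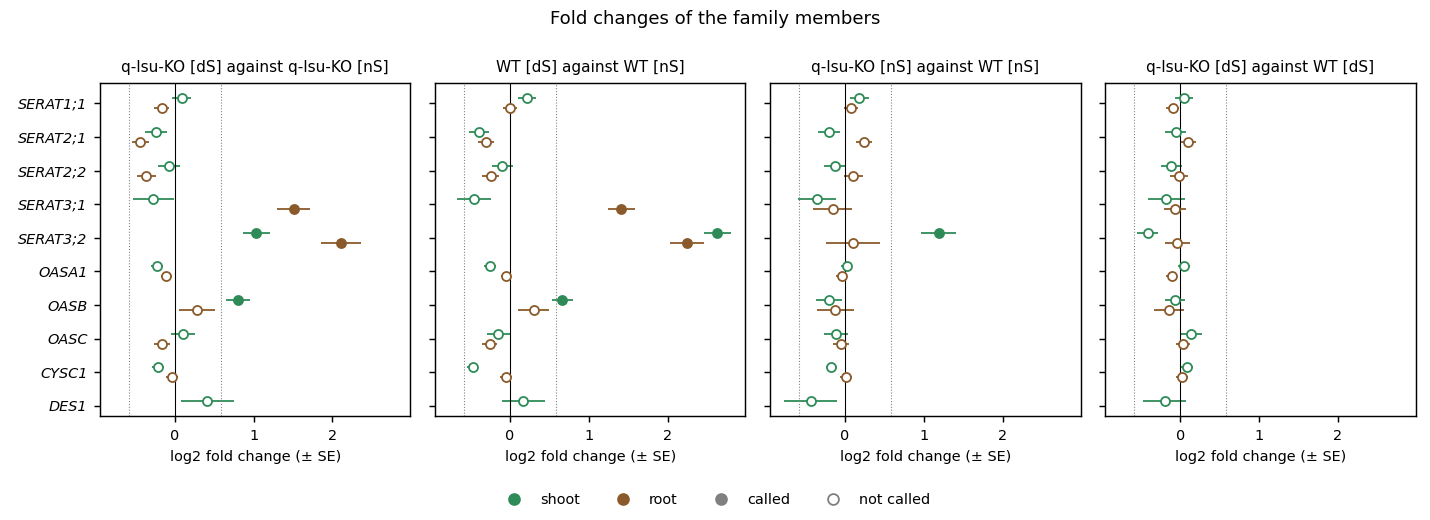
Log2 fold changes (± SE) of the 10 genes in the 4 comparisons within shoots (green) and roots (brown). Filled points passed an adjusted p of 0.05 and a fold change of 1.5, marked by dotted lines, and DES1 was not tested in roots. SERAT3;2 stands at 1.03 and 2.63 in shoots and at 2.11 and 2.25 in roots under [dS], in q-lsu-KO and WT, and is the only filled point in the 2 genotype panels.

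SERAT3;2 encodes a cytosolic isoform with a low affinity for serine. In q-lsu-KO shoots this gene stood at 59.2, 63.3, 41.9 and 56.1 CPM under [dS], against 30.4, 26.9, 20.1 and 34.5 CPM under [nS]. In WT shoots it stood at 64.3, 68.3, 84.6 and 80.0 CPM under [dS], against 9.68, 9.70, 18.2 and 11.7 CPM under [nS]. The libraries of the 2 sulfur conditions did not overlap in either genotype. The log2 fold change was 1.03 ± 0.17 in q-lsu-KO (adjusted p = 8.3e-06) and 2.63 ± 0.18 in WT (adjusted p = 7.8e-16, edgeR).

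The level of SERAT3;2 also differed between genotypes in shoots that had not been starved. All 4 q-lsu-KO [nS] libraries were above all 4 WT [nS] libraries, with a log2 fold change of 1.19 ± 0.22 (adjusted p = 2.8e-04), a 2.28-fold difference. It was the single gene of the 10 called there, beside 4.82% of all genes tested, and the median of the 10 was -0.15, with -0.01 over all genes. Under [dS] the order was the other way: all 4 q-lsu-KO libraries were below all 4 WT libraries, but the log2 difference of -0.41 ± 0.13 did not pass (adjusted p = 0.057). None of the 10 genes was called in that comparison, by edgeR or DESeq2, beside 4.17% of all genes. An unadjusted p under 0.05 was reached by 1 of the 10 (the same gene) and by 17.6% of all genes. The median of the 10 was -0.06, with -0.02 over all genes. Its genotype by sulfur term was -1.60 ± 0.26 (adjusted p = 1.2e-04), so that the smaller fold change in q-lsu-KO passed the test of the difference itself. This was the 1 of the 10 genes called for the term, beside 0.425% of all genes.

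Genes of touch and early stress moved with genotype in the same shoots. The sum of 10 of them ran from 2065 to 2490 CPM in q-lsu-KO and from 157 to 981 CPM in WT under [nS]. Under [dS] it ran from 2289 to 3472 CPM in q-lsu-KO and from 219 to 1483 CPM in WT. All 10 were counted in every group, and replicate 1 was the lowest library in each of these q-lsu-KO and WT groups. Of the 10, 5 were called higher in q-lsu-KO under [nS] and 7 under [dS], beside 4.82% and 4.17% of all genes called. The part of these stress genes in the genotype result was not tested. Without replicate 1 of WT [nS] and of WT [dS], SERAT3;2 in q-lsu-KO differed from WT by 1.09 ± 0.24 under [nS] (adjusted p = 0.0032), and the genotype by sulfur term was -1.56 ± 0.28 (adjusted p = 7.1e-04, edgeR).

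**Figure D2:**
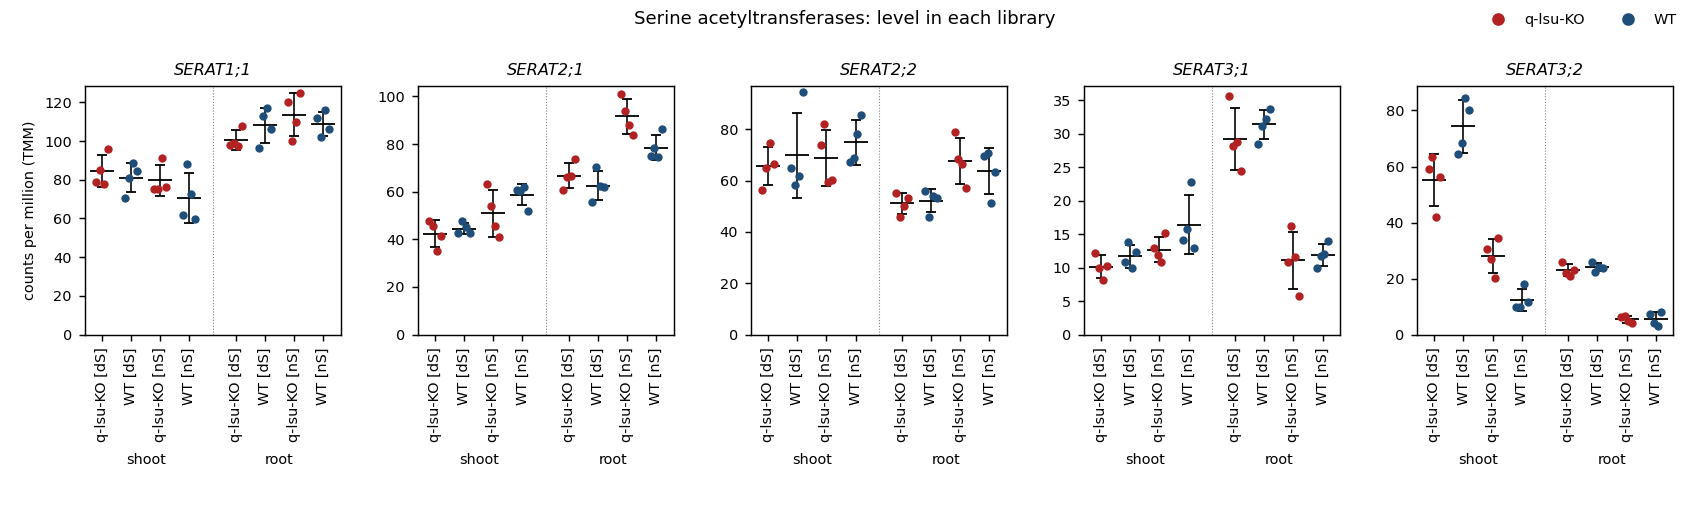
TMM-scaled CPM of the 5 serine acetyltransferases in each library, with the mean and SD of each group of 4 in black. SERAT3;2 lies at 20.1 to 34.5 CPM in q-lsu-KO [nS] shoots and at 9.68 to 18.2 CPM in WT [nS] shoots, and SERAT3;1 reaches 24.5 to 35.6 CPM in [dS] roots, against 5.75 to 16.2 CPM in [nS] roots.

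In roots SERAT3;2 rose in both genotypes, whose libraries overlapped under each sulfur condition. In q-lsu-KO roots it stood at 26.0, 22.1, 21.0 and 23.2 CPM under [dS], against 6.34, 6.82, 4.99 and 4.03 CPM under [nS]. In WT roots it stood at 26.0, 22.5, 24.0 and 23.7 CPM under [dS], against 7.36, 4.22, 3.15 and 8.10 CPM under [nS]. Every [dS] library was above every [nS] library. The log2 fold change was 2.11 ± 0.25 in q-lsu-KO (adjusted p = 8.6e-10) and 2.25 ± 0.22 in WT (adjusted p = 5.5e-13, edgeR). The [nS] values rest on 6 to 11 counts in each library.

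Between genotypes, none of the genes was called in roots. Of the 9 tested, 0 were called between q-lsu-KO and WT under [nS], under [dS] or for the genotype by sulfur term, by edgeR or DESeq2, and 1 (SERAT2;1, under [nS]), 0 and 0 had an unadjusted p under 0.05. Under [dS] DESeq2 gave an adjusted p for 6 of the 10 genes. Among all genes 0.163%, 0.157% and 0.025% were called, and 7.56%, 7.63% and 6.09% had an unadjusted p under 0.05. For the gene SERAT3;2 the q-lsu-KO minus WT difference was 0.10 ± 0.35 under [nS] and -0.04 ± 0.16 under [dS], so the error under [nS] is wide. The difference between its genotype effects in shoots and roots under [nS], 1.12 ± 0.42, did not pass (adjusted p = 0.196), and 0 of the 10 genes were called for genotype by tissue under [nS] or [dS], by edgeR or DESeq2, beside 1.89% and 1.73% of 17918 genes, with 2 (SERAT2;1 and SERAT3;2) and 0 at an unadjusted p under 0.05. DESeq2 gave an adjusted p for 9 of the 10 in each. Among all genes tested by edgeR, 11% under [nS] and 11.3% under [dS] had an unadjusted p under 0.05 for genotype by tissue.

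SERAT3;1, the other cytosolic isoform of its subfamily, rose in roots. It stood at 35.6, 28.2, 28.8 and 24.5 CPM in q-lsu-KO roots under [dS], against 10.9, 16.2, 11.6 and 5.75 CPM under [nS]. In WT roots the values were 28.5, 31.2, 32.2 and 33.7 CPM under [dS], against 10.0, 11.7, 12.0 and 14.0 CPM under [nS]. The libraries did not overlap, and the log2 fold change was 1.51 ± 0.21 in q-lsu-KO (adjusted p = 5.0e-08) and 1.42 ± 0.17 in WT (adjusted p = 1.2e-09). In shoots it moved the other way without passing, by -0.27 ± 0.26 in q-lsu-KO (adjusted p = 0.544) and -0.46 ± 0.22 in WT (adjusted p = 0.135).

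The test of the difference between organs was passed by this gene in both genotypes. Its change under [dS] in shoots minus that in roots was -1.75 ± 0.34 on the log2 scale in q-lsu-KO (adjusted p = 1.8e-04) and -1.86 ± 0.28 in WT (adjusted p = 1.7e-06). SERAT3;2 passed in q-lsu-KO, with -1.05 ± 0.33 (adjusted p = 0.026), and not in WT, with 0.41 ± 0.33 (adjusted p = 0.543). The value in q-lsu-KO rests on single libraries, since leaving out 1 of 5 libraries ended the call. In q-lsu-KO roots the adjusted p became 0.056 when [dS] replicate 1 was left out, 0.057 with [nS] replicate 3 left out and 0.116 with [nS] replicate 4 left out. In q-lsu-KO shoots it became 0.054 with [nS] replicate 1 and 0.064 with [nS] replicate 4 left out. These 2 genes in q-lsu-KO and 1 gene in WT were those called for sulfur by tissue, beside 7.7% and 6.51% of all genes.

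The neighbours on the opposite strand did not rise with them. PSAT1 changed under [dS] by -0.07 ± 0.29 in q-lsu-KO shoots and -0.44 ± 0.25 in WT shoots (adjusted p = 0.908 and 0.255), and its genotype difference in [nS] shoots was -0.33 ± 0.28 (adjusted p = 0.601), the comparisons in which the acetyltransferase gene beside it was higher. In roots PSAT1 changed under [dS] by -0.10 ± 0.09 in q-lsu-KO and -0.23 ± 0.08 in WT (adjusted p = 0.558 and 0.049), and AT2G17630 by -0.43 ± 0.19 in q-lsu-KO and -0.42 ± 0.16 in WT (adjusted p = 0.142 and 0.075).

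The SERAT genes of the main isoforms in each compartment moved by less than 1.5-fold. SERAT2;1, whose product supplies OAS in plastids, stood at 60.7, 66.3, 66.4 and 73.6 CPM in q-lsu-KO roots under [dS], against 101, 93.8, 88.1 and 84.0 CPM under [nS]. In WT roots it stood at 55.5, 70.3, 62.3 and 61.8 CPM under [dS], against 74.9, 78.4, 74.7 and 86.2 CPM under [nS]. The [dS] libraries lay below the [nS] libraries in both genotypes. The changes, -0.44 ± 0.10 in q-lsu-KO (adjusted p = 0.0015) and -0.30 ± 0.10 in WT (adjusted p = 0.024), passed the p-value threshold but not the 1.5-fold threshold. In shoots the change was -0.24 ± 0.14 in q-lsu-KO (adjusted p = 0.248) and -0.39 ± 0.13 in WT (adjusted p = 0.020).

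SERAT2;2, the mitochondrial isoform known to make most of the OAS of leaves, changed by -0.36 ± 0.12 in q-lsu-KO roots (adjusted p = 0.038) and -0.24 ± 0.11 in WT roots (adjusted p = 0.146). In shoots its changes were -0.08 ± 0.14 in q-lsu-KO and -0.10 ± 0.13 in WT. SERAT1;1, the cytosolic isoform, had changes from -0.17 to 0.22 under [dS] over the organs and genotypes, the largest with a standard error of 0.12 (adjusted p = 0.189). The summed level of the 5 SERAT genes averaged 258 ± 15.3 CPM in q-lsu-KO [dS] shoots and 240 ± 15.0 CPM in q-lsu-KO [nS] shoots, and 281 ± 26.1 CPM in WT [dS] shoots and 233 ± 18.4 CPM in WT [nS] shoots.

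OASB, the plastid isoform, was the single gene called under [dS] among OASA1, OASB, OASC, CYSC1 and DES1. In q-lsu-KO shoots it stood at 59.9, 63.8, 48.9 and 46.5 CPM under [dS], against 33.0, 29.1, 27.9 and 38.8 CPM under [nS]. In WT shoots it stood at 67.6, 48.7, 57.8 and 58.3 CPM under [dS], against 38.7, 39.5, 33.7 and 34.3 CPM under [nS]. The libraries did not overlap, and the log2 fold change was 0.80 ± 0.15 in q-lsu-KO (adjusted p = 8.5e-05) and 0.67 ± 0.14 in WT (adjusted p = 1.9e-04). In roots, at 9.58 to 20.4 CPM, the changes of 0.28 ± 0.23 in q-lsu-KO and 0.30 ± 0.19 in WT did not pass (adjusted p = 0.521 and 0.351). The difference between organs was not resolved either, at 0.55 ± 0.29 in q-lsu-KO and 0.37 ± 0.24 in WT (adjusted p = 0.252 and 0.413). Between q-lsu-KO and WT, OASB differed within error, by -0.21 ± 0.16 in [nS] shoots and -0.07 ± 0.13 in [dS] shoots. The 5′ end of OASB overlaps that of AT2G43760, on the opposite strand, by 155 bases, and that gene changed by 0.00 ± 0.16 in q-lsu-KO shoots and -0.14 ± 0.15 in WT shoots under [dS]. At the 3′ end, where the tags are expected, strand does not separate reads of OASB from those of AT2G43745. The part of that overlap in the OASB counts was not tested.

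**Figure D3:**
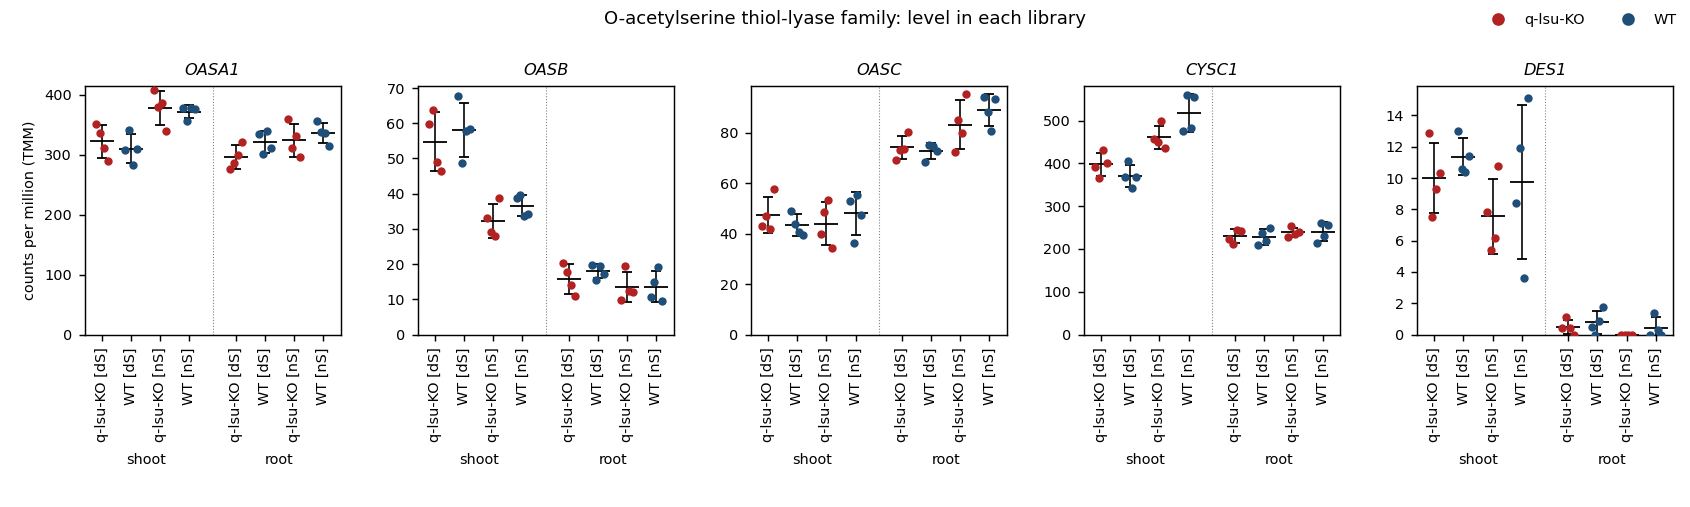
TMM-scaled CPM of OASA1, OASB, OASC, CYSC1 and DES1 in each library, with the mean and SD of each group of 4 in black. OASB lies at 46.5 to 67.6 CPM in [dS] shoots and at 27.9 to 39.5 CPM in [nS] shoots, and DES1 at 3.64 to 15.1 CPM in shoots and 0 to 1.75 CPM in roots.

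CYSC1 stood lower in starved shoots, by less than 1.5-fold. It had 392, 367, 431 and 400 CPM in q-lsu-KO shoots under [dS], against 456, 451, 499 and 437 CPM under [nS]. In WT shoots it had 368, 405, 343 and 369 CPM under [dS], against 476, 559, 482 and 554 CPM under [nS]. All [dS] libraries of each genotype were below its [nS] libraries. The change was -0.22 ± 0.07 in q-lsu-KO (adjusted p = 0.029) and -0.47 ± 0.07 in WT (adjusted p = 1.6e-06), and the genotype by sulfur term, 0.26 ± 0.10, did not pass (adjusted p = 0.629). In roots CYSC1 changed by -0.03 ± 0.08 in q-lsu-KO and -0.05 ± 0.07 in WT, and in WT the shoot change differed from the root change by -0.41 ± 0.11 (adjusted p = 0.0077), again under 1.5-fold.

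OASA1, the main cytosolic thiol-lyase, likewise stood slightly lower in starved shoots. The values ran from 289 to 352 CPM in q-lsu-KO [dS] and from 339 to 408 CPM in q-lsu-KO [nS] shoots, and from 283 to 341 CPM in WT [dS] and from 356 to 378 CPM in WT [nS] shoots. The sulfur conditions overlapped in q-lsu-KO and not in WT. The change was -0.23 ± 0.07 in q-lsu-KO (adjusted p = 0.024) and -0.26 ± 0.07 in WT (adjusted p = 0.0077). In roots it was -0.11 ± 0.07 and -0.05 ± 0.07 in q-lsu-KO and WT, and neither passed. OASC, the mitochondrial thiol-lyase, changed by 0.10 ± 0.15 in q-lsu-KO shoots and -0.15 ± 0.14 in WT shoots, and by -0.17 ± 0.10 in q-lsu-KO roots and -0.26 ± 0.09 in WT roots, the last at an adjusted p of 0.051. The summed level of OASA1, OASB, OASC, CYSC1 and DES1 averaged 832 ± 24.5 CPM in q-lsu-KO [dS] shoots and 923 ± 47.9 CPM in q-lsu-KO [nS] shoots. It was 794 ± 47.2 CPM in WT [dS] shoots and 984 ± 37.9 CPM in WT [nS] shoots. Of this, CYSC1, the β-cyanoalanine synthase, averaged 397, 461, 371 and 518 CPM in these groups. The sum is therefore not a level of cysteine-making enzymes alone.

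DES1 was counted sparsely. Its libraries held 4 to 24 counts in shoots and 0 to 4 counts in roots, and in shoots its changes under [dS], 0.41 ± 0.34 in q-lsu-KO and 0.17 ± 0.27 in WT, were within their errors. Under [nS] the 4 q-lsu-KO libraries summed to 32 counts in shoots (exact 95% interval 21.9 to 45.2) and 0 in roots (0 to 3.69). Against a floor of 3 counts over the root group, the depth-scaled shoot level was 7.65-fold higher. This value leaves out the counting error of both sums. The 4 WT [nS] libraries summed to 55 counts in shoots and 4 in roots, a depth-scaled ratio of 12.4 (exact 95% interval 4.57 to 47.0). Under [dS] the ratio was 11.6 (4.30 to 44.2) in q-lsu-KO and 8.88 (4.14 to 22.7) in WT. These ratios are over plain library totals, and their intervals cover counting error only. With TMM scaling, edgeR gave larger folds for DES1, 17.2 in q-lsu-KO [dS], 13.1 in WT [dS] and 17.9 in WT [nS]. Replicate 2 of WT [nS] roots held 3 of the 4 root counts there, and the log2 fold change of DES1, 4.16 ± 0.53, was 5.39 without it.

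Shoots and roots differed in which isoforms were higher, and SERAT3;2, OASB, CYSC1, DES1 and OASC were called in the same direction in all 4 groups. Calls were made for 6 of the 10 genes in q-lsu-KO [nS], 7 in q-lsu-KO [dS], 6 in WT [nS] and 6 in WT [dS], beside 58.7%, 58.4%, 59.2% and 59.2% of 17918 genes, so the share called was near the background. SERAT3;2 was higher in shoots by 2.34 ± 0.27, 1.29 ± 0.15, 1.22 ± 0.28 and 1.63 ± 0.14 on the log2 scale in these groups, and OASB by 1.24 ± 0.22, 1.79 ± 0.17, 1.31 ± 0.18 and 1.68 ± 0.15. CYSC1 was higher in shoots by 0.95, 0.78, 1.11 and 0.70, each ± 0.08. OASC was lower in shoots, by -0.92 ± 0.13, -0.63 ± 0.12, -0.88 ± 0.12 and -0.76 ± 0.11, and without replicate 1 of shoot q-lsu-KO [dS] the value there was -0.58, under the fold threshold.

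SERAT3;1 was lower in shoots than in roots by -1.51 ± 0.20 in q-lsu-KO [dS] and -1.43 ± 0.17 in WT [dS], and not called under [nS], at 0.24 ± 0.27 in q-lsu-KO and 0.43 ± 0.22 in WT. The plastid isoform SERAT2;1 was lower in shoots in q-lsu-KO, by -0.83 ± 0.12 under [nS] and -0.62 ± 0.12 under [dS], and SERAT1;1 in WT [nS], by -0.64 ± 0.11. In WT the plastid isoform was lower in shoots by -0.49 ± 0.11 under [dS] (adjusted p = 6.2e-05) and -0.41 ± 0.11 under [nS] (adjusted p = 7.2e-04), under 1.5-fold, and its genotype by tissue term did not pass under either condition (adjusted p = 0.866 and 0.245, edgeR). The cytosolic isoform was also lower, under 1.5-fold, in the other 3 groups, by -0.24 to -0.51 with adjusted p of at most 0.033. Single libraries decided some of these calls. That of the plastid isoform under [dS] was lost without replicate 4 of q-lsu-KO roots or replicate 3 of q-lsu-KO shoots (-0.56 at the least), and that of the cytosolic isoform without replicate 1 or 4 of WT [nS] shoots (-0.57 at the least). The cytosolic isoform gained a call in q-lsu-KO [nS], at -0.59, without replicate 3 of those shoots. The mitochondrial SERAT and OASA1 were called in none of the 4. The scaling bears on all these values. Plain library totals in place of TMM moved the median of all genes in shoots against roots by -0.68 to -0.76, and upper-quartile factors by -0.21 to -0.30. With plain totals CYSC1 was called in none of the groups, at 0.19, 0.04, 0.37 and 0.02, and OASB and SERAT3;2 kept their direction but lost the call in 2 groups each.

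By level, SERAT3;2 had the order WT [dS] shoots (74.3 ± 9.55 CPM), q-lsu-KO [dS] shoots (55.1 ± 9.29), q-lsu-KO [nS] shoots (28.0 ± 6.06), WT [dS] roots (24.0 ± 1.47), q-lsu-KO [dS] roots (23.1 ± 2.18), WT [nS] shoots (12.3 ± 4.04), WT [nS] roots (5.71 ± 2.39) and q-lsu-KO [nS] roots (5.54 ± 1.28). The libraries of neighbours in this order overlapped from q-lsu-KO [nS] shoots through q-lsu-KO [dS] roots and between the 2 [nS] root groups. In SERAT1;1, OASC and DES1 the break in the order lay between the 4 shoot and the 4 root groups, and neighbouring groups within an organ overlapped. In SERAT3;1 the [dS] roots of both genotypes stood clear of the 6 other groups, which overlapped one another in order. In OASB both [dS] shoot groups stood clear of both [nS] shoot groups, and these of the 4 root groups.

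SERAT3;2, DES1 and OASB had the widest range of group means, 3.55, 3.62 and 2.06 on the log2(CPM + 1) scale. Over the 8 group means the genes whose pattern was most like that of SERAT3;2, among 17917 others, were SULTR4;2, a vacuolar sulfate exporter (Pearson r = 0.991), and SBP1, a selenium-binding protein (r = 0.991). For OASB they were PRXR1 (r = 0.998) and MES14 (r = 0.995), and for DES1 TCP3 and AGL20 (r = 0.999 each). The 8 means share libraries' organ and pool, and with so few points r is a description.

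OAS that accumulates when sulfide is short goes with higher levels of a small set of genes, the OAS cluster. These counts do not measure OAS. The paper measured OAS in a separate experiment, with seedlings germinated and grown on [nS] or [dS] without a transfer. It reported an OAS level unaffected by the LSU deletions on [nS], and no significant metabolite differences between genotypes on [dS]. In shoots under [dS], 4 of the 6 cluster genes rose in q-lsu-KO and 5 of 6 in WT, with medians of 0.98 and 2.96 on the log2 scale. Over all genes, 12.1% and 11.4% were called there. Between q-lsu-KO and WT, 5 of 6 were higher under [nS], with a median of 2.20, and 1 under [dS], with a median of -0.05. The shares over all genes were 4.82% and 4.17%. LSU1, one of the deleted genes whose tags were still counted, was among the 5 under [nS] and was the 1 under [dS]. The genotype by sulfur term was called lower for 4 of 6, beside 0.425% of all genes called. Among the 4 were SDI1, which represses glucosinolate synthesis (-2.99 ± 0.28, adjusted p = 7.9e-05), and GGCT2;1, which breaks down glutathione (-2.52 ± 0.11, adjusted p = 8.5e-22, edgeR). Side by side in shoots, GGCT2;1 and SERAT3;2 stood at 1.26 and 1.03 in q-lsu-KO under [dS], at 3.78 and 2.63 in WT under [dS], at 2.27 and 1.19 between genotypes under [nS] and at -0.25 and -0.41 under [dS]. These comparisons share libraries. The other cluster genes differed in sign between genotypes in [dS] shoots. There LSU1, SHM7 and SDI2 stood at 0.96, 0.22 and 0.09, and SDI1 and APR3 at -0.29 and -0.19. In roots 5 of the 6 rose in q-lsu-KO and 5 in WT under [dS], with medians of 1.69 and 2.29, beside 6.15% and 6.82% of all genes called.

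**Figure D4:**
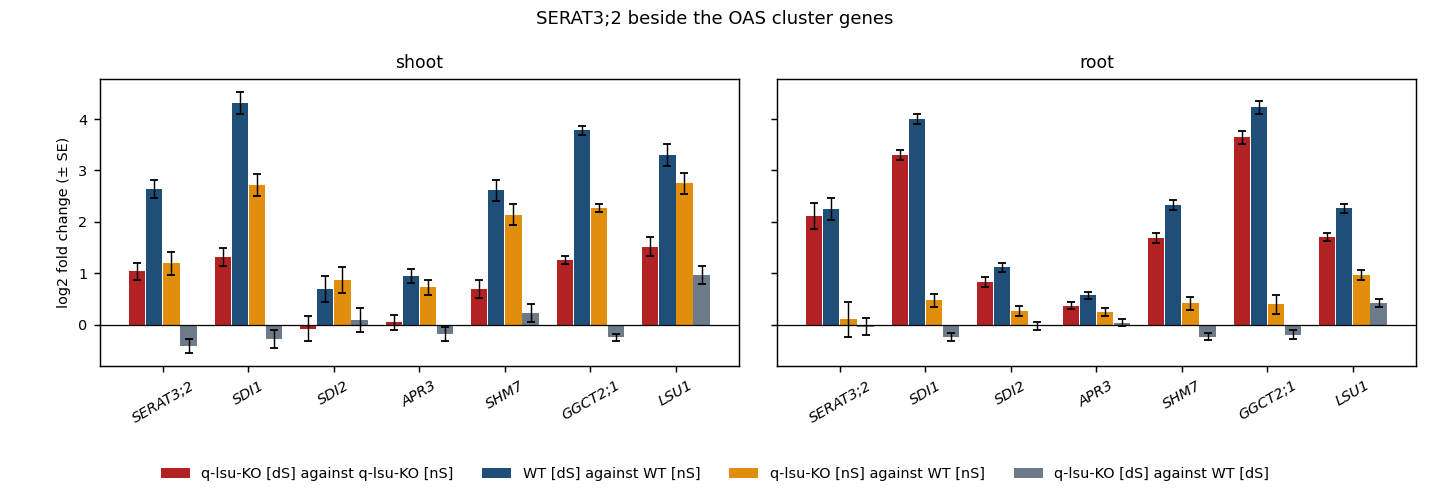
Bars give log2 fold changes (± SE) of SERAT3;2 and the 6 OAS cluster genes in shoots (left) and roots (right). In q-lsu-KO [nS] against WT [nS], SERAT3;2 stands at 1.19 in shoots and 0.10 in roots, and GGCT2;1 at 2.27 and 0.39.

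Around the cysteine step, transcripts moved in both directions. The counts that follow stand beside 12.1% and 11.4% of all genes called under [dS] in q-lsu-KO and WT shoots, and 6.15% and 6.82% in roots. Of 8 genes that activate and reduce sulfate, 3 fell and 0 rose in q-lsu-KO shoots under [dS], and 3 fell and 1 rose in WT shoots. ATPS2, a sulfate-activating ATP sulfurylase, fell by 0.89 ± 0.19 in q-lsu-KO (adjusted p = 3.1e-04) and 2.07 ± 0.14 in WT (adjusted p = 9.0e-16), and SIR, which reduces sulfite to sulfide, fell in WT by 0.72 ± 0.10 (adjusted p = 2.8e-07). In roots 1 rose and 2 fell in q-lsu-KO and 2 rose and 2 fell in WT, with ATPS3 up by 1.24 ± 0.19 (adjusted p = 3.8e-07) and 0.87 ± 0.15 (adjusted p = 8.9e-06) in q-lsu-KO and WT, and ATPS4 lower by -1.46 ± 0.12 and -1.55 ± 0.11. The medians of the 8 were -0.30 in q-lsu-KO and -0.37 in WT shoots, and 0.14 and 0.11 in q-lsu-KO and WT roots.

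Over all genes, 12.1% and 11.4% were called under [dS] in q-lsu-KO and WT shoots, and 6.15% and 6.82% in roots. Of 6 genes that make serine, the substrate of SERAT, 1 rose in shoots of each genotype and 0 fell. This was PGDH2, a phosphoglycerate dehydrogenase, by 1.76 ± 0.15 in q-lsu-KO (adjusted p = 1.1e-12) and 1.41 ± 0.13 in WT (adjusted p = 1.3e-11). In roots 0 of 5 tested were called in either genotype, with 3 in WT and 0 in q-lsu-KO at an adjusted p under 0.05 alone. Among 6 genes that use cysteine, GSH1, which starts glutathione synthesis, fell in all 4 comparisons, by 0.93 ± 0.11 in q-lsu-KO and 1.30 ± 0.10 in WT shoots and by 0.81 ± 0.09 in q-lsu-KO and 0.64 ± 0.08 in WT roots (largest adjusted p = 8.6e-09), and CGS1, of methionine synthesis, fell in WT shoots and in WT roots, by 0.65 ± 0.07 and 0.68 ± 0.07.

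Among 4 other thiol-lyase-like genes, 3 were tested in each organ. CS26, a plastid S-sulfocysteine synthase, fell in shoots by 0.98 ± 0.32 in q-lsu-KO (adjusted p = 0.024) and 1.42 ± 0.27 in WT (adjusted p = 7.4e-05). CYSD2 rose in roots by 0.63 ± 0.14 in q-lsu-KO (adjusted p = 6.2e-04) and 0.68 ± 0.12 in WT (adjusted p = 1.4e-05). CYP20-3, a plastid cyclophilin that binds the cysteine synthase complex, fell in shoots by 0.84 ± 0.08 in q-lsu-KO and 0.64 ± 0.07 in WT and was not called in roots. Of 7 genes of cysteine and cyanide breakdown, NIT4, which acts on the β-cyanoalanine that CYSC1 makes, fell under [dS] in shoots by 0.63 ± 0.23 in q-lsu-KO (adjusted p = 0.044) and 0.96 ± 0.16 in WT (adjusted p = 5.8e-06), and in roots changed by -2.34 ± 0.37 in q-lsu-KO and -2.94 ± 0.37 in WT. ETHE1, a mitochondrial sulfur dioxygenase, rose in WT shoots by 0.71 ± 0.11 (adjusted p = 2.9e-06).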

How the data were processed

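3′RNA-seq reads of the 32 libraries were aligned by the authors with STAR 2.7.8a to TAIR10, according to the submitters' processing notes, which also name DESeq2. The deposited values are raw counts per gene, 1 file a library. How reads were counted, with which annotation version and strand setting, and whether molecular identifiers were collapsed is not given in the sources used here. Counts were fitted with edgeR 4.0.16 in R 4.3.3 (TMM, filterByExpr with a minimum count of 10, robust quasi-likelihood), with 16 libraries per organ and all 32 for contrasts between organs. A call needed a Benjamini-Hochberg adjusted p under 0.05 over all genes tested and a fold change over 1.5. Levels are TMM-scaled CPM, and standard errors are the log2 fold change over the square root of F. No replicate pair agreed within sampling noise. The shoot and root fits were tested on simulated data with changes placed in WT [dS]. The fit of all 32 libraries was not tested in this way, nor were the tests of a difference between changes. The 10 genes and the other lists were chosen with earlier results of these data known. All 10 genes were named in the text, other genes from the lists where called, and for likeness the 2 genes of highest r for each of the 3 genes with the widest range. Tried besides were DESeq2 1.42.0, other scalings and filters, a replicate block and leaving out libraries. The deviations of same-numbered libraries had correlations from -0.079 to 0.328 in shoots (median 0.037), where 6 of 24 pairs were over 0.1. In roots they ran from -0.092 to 0.077, where 0 of 24 were. Other-numbered pairs ran from -0.358 to 0.192 in shoots (median -0.018), with 9 of 72 over 0.1. In roots these ran from -0.09 to 0.113, with 1 of 72 over 0.1. Same-numbered shoot libraries were thus somewhat more alike, and whether the numbers mark pairs was not settled. The main fit did not take them as pairs.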

Additional observations from a re-analysis of the deposited data

Results flagged for a closer look

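Of 79 groups of 4 libraries given to Dixon's test, 4 had 1 library apart from the rest, and chance flags about 1 in 20. For SERAT1;1, replicate 4 of root q-lsu-KO [dS] stood at 108 CPM beside 97.3 to 98.8, and replicate 3 of shoot q-lsu-KO [nS] at 91.4 CPM beside 75.4 to 76.4. For SERAT2;1, replicate 4 of shoot WT [nS] stood at 52.1 CPM beside 60.4 to 61.9. For OASA1, replicate 2 of shoot WT [nS] stood at 356 CPM beside 377 to 378.

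A test of the difference itself passed in 4 cases. In shoots, the change of SERAT3;2 under [dS] in q-lsu-KO minus that in WT was -1.60 on the log2 scale. The change of SERAT3;1 in shoots minus that in roots was -1.75 in q-lsu-KO and -1.86 in WT. That of SERAT3;2 in q-lsu-KO was -1.05, the call that single libraries decide.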

How the results depend on the processing

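Under DESeq2, RLE factors, no low-count filter, a mean CPM of at least 5, organelle genes left out, only the libraries compared, and the replicate block, no call among the 55 fold changes followed (38 called) was lost or gained where the alternative gave a value. With the replicate block the count of genes called stayed 2 in shoots under [dS] in each genotype and 1 between genotypes under [nS]. With the adjusted p alone and no fold threshold, 17 of the 55 fold changes gained a call. By this criterion 4 genes were called in q-lsu-KO and 5 in WT shoots under [dS], beside 3231 and 3395 of all 14593 genes. In roots under [dS] 4 were called in q-lsu-KO and 3 in WT, beside 1858 and 2156 of 15971 genes. For sulfur by tissue in WT 2 were called, beside 1580 of 17918 genes. Leaving out 1 library at a time, sulfur by tissue in q-lsu-KO had 1 to 2 calls, with SERAT3;2 between -1.20 and -0.89. Between shoots and roots, leaving out 1 library also lost SERAT1;1 in WT [nS] (-0.77 to -0.57), and SERAT2;1 (-0.67 to -0.56) and OASC (-0.76 to -0.58) in q-lsu-KO [dS]. It gained SERAT1;1 in q-lsu-KO [nS], at -0.59 without replicate 3 of the shoots, the library flagged above for this gene. Without replicate 1 of both WT shoot groups SERAT1;1 in WT [nS] was -0.58 and not called. With upper-quartile factors OASA1 in q-lsu-KO [nS] shoots against roots was -0.0304, against 0.23, 2 calls between organs were lost (CYSC1 in both [dS] groups, 0.48 in q-lsu-KO and 0.46 in WT) and 4 were gained. With plain library totals, an alternative chosen after seeing the data, it was -0.53, and SERAT2;2 was -0.40 in q-lsu-KO [dS] and -0.26 in WT [dS], against 0.34 and 0.42, since this scaling moves all genes between organs, and 8 calls were lost and 5 gained. The depth limits DES1 and SERAT3;2 in [nS] roots, where libraries held 0 to 4 and 6 to 11 counts.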
